A study of Homo sapiens with 4 samples.

Results

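Chromosome 11 was divided by the deposited bin list into 661 bins of about 200 kb, of 14444 bins in the whole genome. The members are all of these bins, with the contact scores of the pairs among them. The arms are described apart. The unsequenced centromere gap, chr11:51594206-54694205 in GRCh37, separates 259 bins of 11p from 402 bins of 11q. The chromosome was chosen by how many of its bins changed compartment in OIS relative to Grow, so those counts are a description of the choice. The Grow-shA1 and OIS-shA1 maps played no part in the choice.

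The cells were IMR90, a line of normal human lung fibroblasts, and the assay was Hi-C. Hi-C cuts crosslinked chromatin, here with HindIII, joins ends that lie close together inside the nucleus and reads the joined pairs. All cells carried pLNCX2 ER:HRAS G12V, an oncogenic RAS fused to an oestrogen receptor domain, and were grown in 5% O2. OIS cells received 100 nM 4OHT for 6 days, which switches the fusion on and drives oncogene-induced senescence, and Grow cells received none. Grow-shA1 and OIS-shA1 cells also carried pMSCV miR shHMGA1, a single hairpin against HMGA1. Each of these 2 groups has 2 samples, which were pooled into 1 map. The maps of Grow and OIS belong to previous work of the laboratory and to no sample of this series, so the effect of shA1 and the difference between data sets cannot be told apart where a map with shA1 is set against a map without it. A single map per condition leaves no replicate error, and no test was made. Every SD is over bins or pairs, which are not replicates. Hi-C holds no expression values, so the cell type was not checked against marker genes.

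Chromosomes fold into active (A) and inactive (B) compartments, in which gene-rich and gene-poor stretches each contact their own kind over long distances. In senescence driven by RAS, B chromatin gathers into heterochromatic foci, and HMGA1, whose AT-hooks bind stretches of A and T, is a structural part of them. Chromosome 11 carries large families of sensory and tissue-restricted genes, among them many olfactory receptors, the beta-globins and the matrix metalloproteinases, beside gene-dense stretches and long gene deserts.

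The sequences below are single examples from named bins, and a stretch need not match its bin in base composition. No bin that stayed B in OIS is among them. The base composition of the classes of bins is compared further on. In these stretches, read from GRCh37 on the plus strand outside exons, capitals mark each run of at least 6 bases made up of A and T alone. The first of each pair lies in the middle of the longest run of bins that went from B to A in OIS, and the second in the kept bin with the highest GC content of the same arm. The 11p run sequence is chr11:45498551-45498790, between genes, in a bin of 48.3% GC with 7.48% of its bases in such runs. The 11p high-GC sequence is chr11:1505713-1505872, inside MOB2, in a bin of 59.2% GC with 3.63% of its bases in such runs. The 11q run sequence is chr11:117501220-117501459, inside the cell adhesion gene DSCAML1, in a bin of 49.1% GC with 7.10% in such runs. The 11q high-GC sequence is chr11:63893726-63893885, inside MACROD1, in a bin of 56.3% GC with 5.00% in such runs.
11p, B to A run: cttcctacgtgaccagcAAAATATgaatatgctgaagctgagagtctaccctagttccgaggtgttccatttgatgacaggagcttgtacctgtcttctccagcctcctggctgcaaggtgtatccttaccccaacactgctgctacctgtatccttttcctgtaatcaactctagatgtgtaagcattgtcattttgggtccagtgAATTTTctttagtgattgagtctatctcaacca
11p, highest GC: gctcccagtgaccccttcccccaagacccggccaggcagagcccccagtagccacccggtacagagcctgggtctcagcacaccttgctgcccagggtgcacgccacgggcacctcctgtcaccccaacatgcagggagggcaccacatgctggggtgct
11q, B to A run: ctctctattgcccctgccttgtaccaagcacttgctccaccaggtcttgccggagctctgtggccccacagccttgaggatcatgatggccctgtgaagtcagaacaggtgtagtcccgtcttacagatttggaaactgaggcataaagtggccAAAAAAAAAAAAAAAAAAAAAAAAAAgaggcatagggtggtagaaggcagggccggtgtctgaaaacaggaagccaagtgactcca
11q, highest GC: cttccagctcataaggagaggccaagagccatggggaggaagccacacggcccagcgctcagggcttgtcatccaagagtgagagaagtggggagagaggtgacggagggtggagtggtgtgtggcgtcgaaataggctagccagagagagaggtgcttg
The bins follow the enzyme that made the contacts. All 660 inner edges of the chromosome's bins lie within 10 bases of the HindIII motif AAGCTT, printed in capitals for the left edge of the longest B to A run of each arm, chr11:45203861-45203890 and chr11:117200696-117200725.
11p, left edge: ctcatcgtgcccaaAAGCTTccagcaagtg
11q, left edge: tgttcagtggctatAAGCTTttgttgtcat

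A bin was kept where at least 50% of its pairs on the chromosome were listed in each of the 4 maps. This left 249 bins of 11p and 377 of 11q, or 626 in all. The bins left out were the GC-rich end of 11p (7 bins with 50 protein-coding genes, the mucin genes among them), 1 bin near LSP1, 3 at the centromere, 1 around the TRIM64 genes and 23 bins in the gene-dense stretch chr11:64397729-72599425, among them 16 in a row with 130 genes. Results for 11q therefore say little about its most gene-dense stretch. Listing stood in for depth, since the files give no read counts. Of the possible pairs over 2 Mb apart (distal) within 11p, Grow listed 98.1%, Grow-shA1 96.6%, OIS 91.4% and OIS-shA1 91.2%. Within 11q the shares were 96.7%, 93.8%, 88.8% and 86.3% in the same order, and between the arms 87.1%, 80.9%, 73.4% and 72.1%. Both OIS maps thus listed fewer distal pairs than both Grow maps.

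Each kept bin has a compartment score, taken from the leading component of the correlations among the chromosome's contact scores, scaled to a root mean square of 1. A positive score is called A and a negative score B. In Grow, 103 of 249 bins of 11p and 165 of 377 bins of 11q were A. In OIS, 24 bins of 11p and 53 of 11q went from B to A, which is 9.64% and 14.1% of their bins, beside 8.9% of all kept bins of the 22 autosomes and X. The opposite change was made by 5 bins of 11p and 3 of 11q, beside 0.86% of all kept bins. In all, 13.6% of the kept bins of chromosome 11 changed compartment in OIS, the 2nd highest share of 23 chromosomes after chromosome 21. Chromosomes 10 and 12, closest in length, had 9.72% and 10.5%.

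In the maps that the choice did not use, OIS-shA1 against Grow-shA1, 26 bins of 11p and 45 of 11q went from B to A, beside 7.83% of all kept bins, and 1 and 16 went from A to B, beside 1.37%. The share that changed, 14.1%, was again the 2nd highest, and the other 22 chromosomes ranged from 5.95% to 19.3% with a median of 8.11%. With a component computed for each arm alone the chromosome's shares were 12% in OIS minus Grow and 13.6% in OIS-shA1 minus Grow-shA1, the 4th and 3rd highest. Without RAS fewer bins differed. In Grow-shA1 relative to Grow, 2 bins of 11p and 3 of 11q went from B to A, beside 1.64% of all kept bins, and 7 and 8 went from A to B, beside 1.69%.

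**Figure D1:**
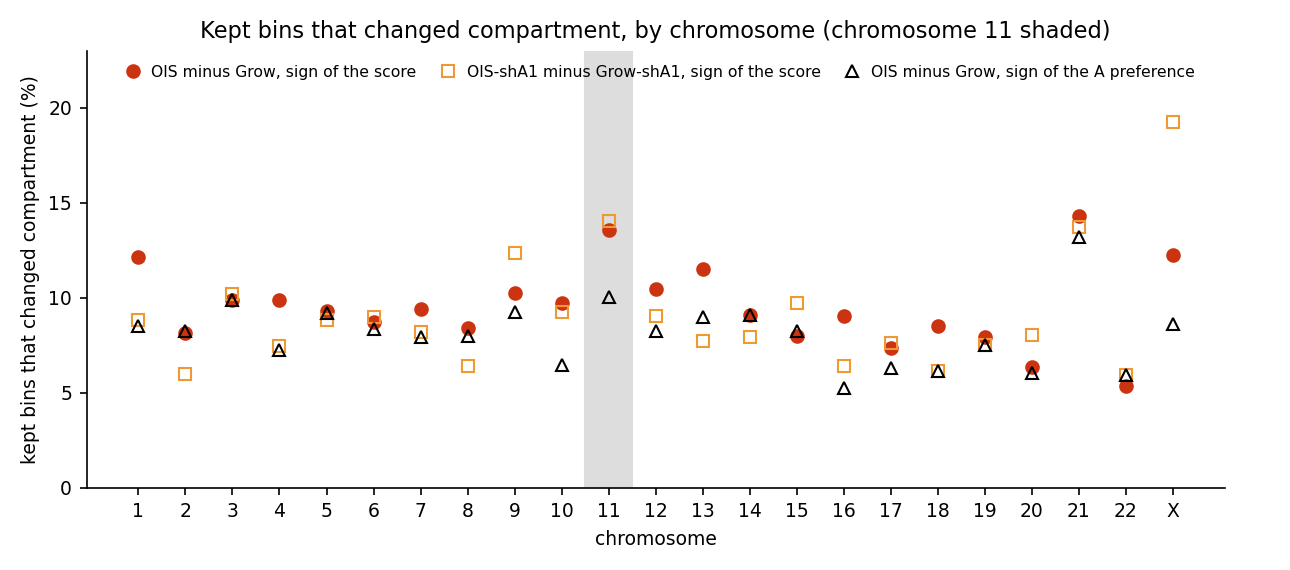
Share of kept bins that changed compartment on each of 23 chromosomes (percent), by the sign of the score in OIS minus Grow (filled circles) and in OIS-shA1 minus Grow-shA1 (squares), and by the sign of the A preference in OIS minus Grow (triangles). Chromosome 11, shaded, lies at 13.6%, 14.1% and 10.1%.

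The bins that went from B to A were not spread evenly along 11q. The arm beyond 60 Mb from the middle of the centromere gap, chr11:113198021-135006516, held 34 of the 53, in 109 kept bins, which is 31.2% of them. The 268 kept bins nearer the centromere held 19, or 7.09%. This boundary was set after the values were seen. In the outer stretch the mean score was -0.150 in Grow, -0.234 in Grow-shA1, 0.271 in OIS and 0.131 in OIS-shA1. By score it was B on balance in both Grow maps and A on balance in both OIS maps. The score was higher in OIS than in Grow in 90 of the 109 bins, by a mean of 0.421 ± 0.376 (SD over bins), and higher in OIS-shA1 than in Grow-shA1 in 84 of them, by 0.365 ± 0.440. In the inner stretch the mean change was -0.0146 ± 0.377 in OIS minus Grow and -0.0343 ± 0.381 in OIS-shA1 minus Grow-shA1. The score was nevertheless higher in 107 of the 268 inner bins in OIS minus Grow and in 104 in OIS-shA1 minus Grow-shA1. With shA1, 25 of the outer bins (22.9%) and 20 of the inner bins (7.46%) went from B to A. On 11p the bins lay in several places, with 9 of 24 between 30 and 40 Mb from the centromere and none between 10 and 20 Mb. That stretch holds the start of LRRC4C, a synaptic adhesion gene, whose bin had a score of -1.29 in Grow and -1.50 in OIS.

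**Figure D2:**
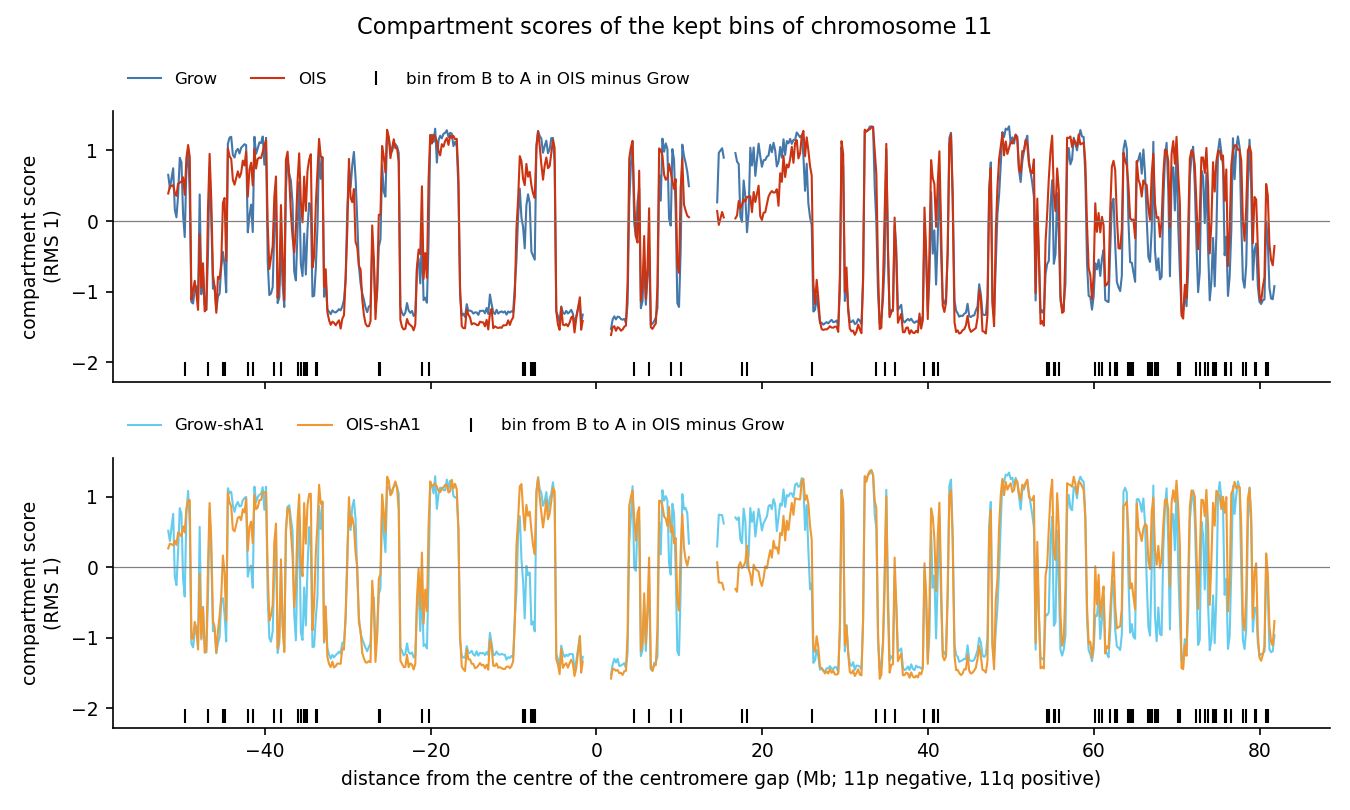
Compartment score of each kept bin (root mean square 1) against its distance from the centre of the centromere gap in Mb, 11p to the left and 11q to the right, for Grow and OIS (top) and Grow-shA1 and OIS-shA1 (bottom). Ticks mark the 77 bins that went from B to A in OIS minus Grow, which crowd in outer 11q (34 of 109 kept bins), and breaks in the lines mark bins that were not kept.

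On 11p the 24 bins fell into 16 runs of adjacent bins, 6 of them longer than 1 bin. The longest, chr11:45203876-45809122, held 3 bins and 3 protein-coding genes. These were PRDM11, SYT13, a member of the synaptotagmin family, and CHST1, a sulfotransferase that modifies carbohydrates. Its mean score was -0.490 in Grow, -0.830 in Grow-shA1, 0.409 in OIS and 0.340 in OIS-shA1. Both OIS maps placed it in A and both Grow maps in B. The next run, chr11:17798484-18396423, held 12 protein-coding genes in 3 bins, the 5 longest being KCNC1, a potassium channel of fast-spiking neurons, SERGEF, SAAL1, HPS5, which takes part in the making of lysosome-related organelles, and GTF2H1, a subunit of the transcription and repair factor TFIIH. Its mean score was -0.354 in Grow, -0.377 in Grow-shA1, 0.494 in OIS and 0.706 in OIS-shA1, higher still with shA1. The third run, chr11:19200365-19594334, held CSRP3, a muscle LIM protein gene, E2F8, a repressor of cell cycle genes, and the start of NAV2. Its scores were -0.383, -0.570, 0.465 and 0.396 in the order Grow, Grow-shA1, OIS and OIS-shA1.

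The 11p bin whose score was most above its Grow value in OIS was chr11:8199434-8397088, which holds LMO1, a transcriptional regulator of the LIM-only family. Its score was -0.619 in Grow, -0.663 in Grow-shA1, 0.328 in OIS and -0.0761 in OIS-shA1. The OIS map alone placed it in A. The 2nd and 3rd largest positive differences were those of the bins of PRDM11 with SYT13 and of CSRP3 with E2F8.

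On 11q the 53 bins fell into 36 runs, 12 of them longer than 1 bin. The longest, chr11:117200711-118002037, held 4 bins and 9 protein-coding genes, among them CEP164, needed for cilium formation, DSCAML1, FXYD6, a regulator of the sodium pump, SMIM35 and TMPRSS4, a membrane-bound serine protease. Its mean score was -0.476 in Grow, -0.727 in Grow-shA1, 0.143 in OIS and -0.119 in OIS-shA1. By score it was A on average in OIS alone, although its score was higher in OIS-shA1 than in Grow-shA1 by 0.608. Its contacts, taken up below, favoured B on average in every map. The 2nd run, chr11:127399951-127999788, held 3 bins and no protein-coding gene. Its scores, -0.450 in Grow, -0.629 in Grow-shA1, 0.70 in OIS and 0.861 in OIS-shA1, differed more than those of any other run of 3 or more bins, in both pairs. The 3rd run, chr11:119603416-120202822, held TRIM29, OAF, POU2F3, which specifies tuft cells, and TLCD5. Its mean scores were -0.401 in Grow, -0.605 in Grow-shA1, 0.287 in OIS and 0.282 in OIS-shA1, A on average in both OIS maps. Its bin chr11:119799951-120002736, which overlaps TRIM29, had 0.0177 in OIS and was B in OIS-shA1, at -0.0258.

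The largest positive difference of a single bin of 11q was in the middle of the run without genes, chr11:127599400-127800020, with scores of -0.925 in Grow, -1.07 in Grow-shA1, 0.417 in OIS and 0.588 in OIS-shA1. The next was the bin of the transporter gene SLC35F2, chr11:107595625-107792014, at -0.565, -0.640, 0.602 and 0.549 in the same order. The 3rd was the bin of HEPHL1, a copper-binding ferroxidase of the hephaestin family, chr11:93601141-93794319, at -0.461, -0.290, 0.613 and 0.717. OIS-shA1 minus Grow-shA1 was 1.66, 1.19 and 1.01 in these bins, beside 1.34, 1.17 and 1.07 in OIS minus Grow.

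Of the bins that went from A to B in OIS, the longest run on 11p was chr11:23997105-24401853, 2 bins of a gene desert with no protein-coding gene. Its mean score was 0.314 in Grow, 0.281 in Grow-shA1, -0.331 in OIS and 0.106 in OIS-shA1, so it was B in OIS alone. The beta-globin bin, chr11:5200307-5398329, with the genes of the adult and fetal globins and neighbouring olfactory receptors, was A in both Grow maps (0.377 and 0.572 with shA1) and B in both OIS maps (-0.184 and -0.0893). The bin with the 3rd largest negative difference on 11p, the desert bin chr11:23799376-23997104, was above 0 in every map. On 11q the 3 bins that went from A to B lay apart. The largest negative difference was that of chr11:67800951-67999402, with 4 genes, NDUFS8 of respiratory complex I, TCIRG1 of a proton pump, the choline kinase gene CHKA and the histone methyltransferase gene KMT5B. Its score was 0.967 in Grow, 0.745 in Grow-shA1, -0.0543 in OIS and -0.215 in OIS-shA1. Next were the bins of the chloride channel gene ANO1, from 0.963 to 0.0381, and of LRP5, a WNT co-receptor, with PPP6R3, from 1.03 to 0.129. Both were A in Grow and OIS and B in OIS-shA1, at -0.308 and -0.221. These bins of 11q are taken up again below, because their contacts did not follow their scores.

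The bins closest to the threshold of 0 show how narrow a call can be. On 11q the weakest B to A call had an OIS score of 0.00199 and the closest bin that stayed B had -0.00125. On 11p these were 0.0892 and -0.0178. Requiring both scores to lie over 0.2 from 0 left 12 B to A bins on 11p and 20 on 11q. Keeping only bins with 80% of their pairs listed left 114 bins of 11p and 190 of 11q, over which gene count no longer fixed the sign of the component (r of 0.0125 to 0.0704 in the 4 maps). Oriented by GC content instead, a setting added after seeing the data (r of 0.0507 to 0.177), each component had an r of 0.925 or more with the score used here. Then 6 bins of 11p became A and 5 became B, and on 11q 21 became A and 1 became B. The counts each way were thus near equal on 11p and far apart on 11q among these bins.

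Of the bins that went from B to A in OIS, 18 of 24 on 11p (75%, 95% exact binomial interval 53.3 to 90.2, which treats bins as independent, as neighbours are not) also went from B to A in OIS-shA1 relative to Grow-shA1. On 11q these were 36 of 53 (67.9%, 53.7 to 80.1). With both scores over 0.2 from 0 the shares were 41.7% on 11p and 60% on 11q, and among the bins with 80% of pairs listed, oriented by GC content, 33.3% of 6 bins and 76.2% of 21. The score was higher in OIS-shA1 than in Grow-shA1 in 24 of 24 bins of 11p, by a mean of 0.756 ± 0.361 (SD over bins), and in 52 of 53 bins of 11q, by 0.689 ± 0.391. For comparison, the bins that were B in both Grow and OIS changed by -0.0204 ± 0.225 on 11p (122 bins) and 0.0564 ± 0.263 on 11q (159 bins), and 1 and 3 of them went from B to A with shA1. These bins lay deeper in B, so a like change would bring fewer of them past 0. Their mean score in Grow-shA1 was -1.09 ± 0.231 on 11p and -1.18 ± 0.266 on 11q. That of the chosen bins was -0.418 ± 0.309 and -0.466 ± 0.391. In Grow-shA1 22 of 24 and 50 of 53 of the chosen bins were B, and in OIS-shA1 20 of 24 and 38 of 53 were A. Of the bins that went from A to B in OIS, 1 of 5 on 11p and 2 of 3 on 11q did so with shA1.

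**Figure D3:**
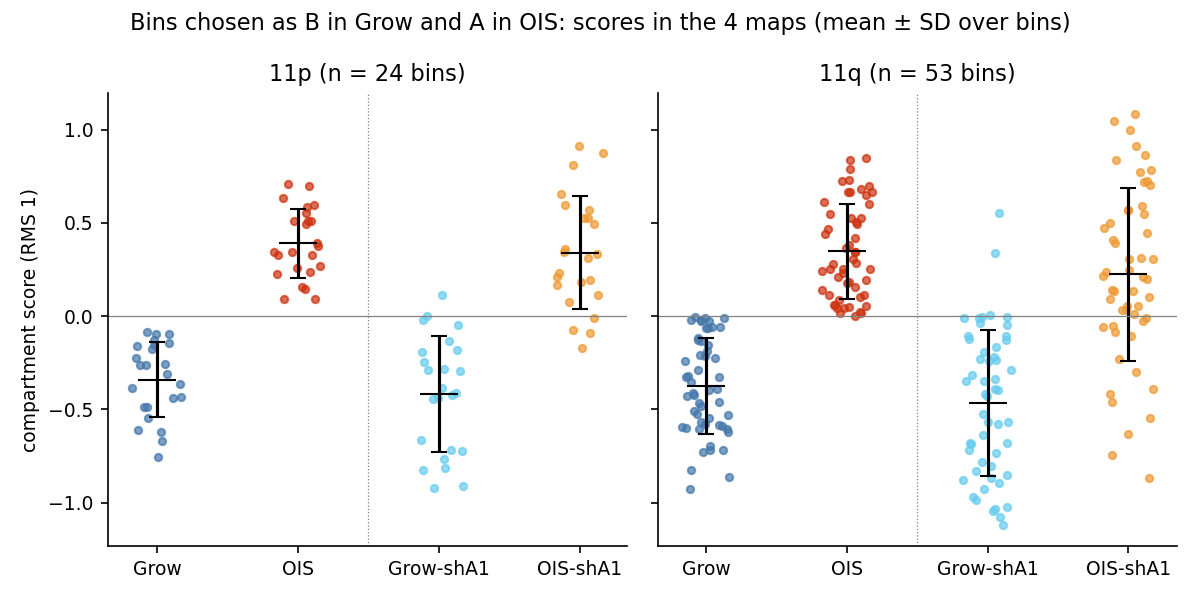
Compartment scores (root mean square 1) of the 24 bins of 11p and the 53 bins of 11q chosen as B in Grow and A in OIS, in the 4 maps. Each point is a bin and bars give the mean ± SD over bins; Grow and OIS are split by the choice itself, and in the maps with shA1, which had no part in it, 20 of 24 and 38 of 53 bins are above 0 in OIS-shA1.

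The score rests on the component, so contacts were also read directly. The A preference of a bin is its mean distal contact score with 233 bins that were A in all 4 maps minus its mean with 277 bins that were B in all 4 maps, over pairs listed in all 4. The score units are those of the deposited maps. For the 24 chosen bins of 11p the mean A preference was -0.300 ± 0.196 in Grow, -0.348 ± 0.251 in Grow-shA1, 0.121 ± 0.176 in OIS and 0.159 ± 0.265 in OIS-shA1. It was higher in OIS-shA1 than in Grow-shA1 in 23 of 24 bins, by 0.507 ± 0.303. For the 53 bins of 11q it was -0.376 ± 0.241 in Grow, -0.424 ± 0.355 in Grow-shA1, 0.0273 ± 0.261 in OIS and 0.0215 ± 0.405 in OIS-shA1, and higher in OIS-shA1 than in Grow-shA1 in 49 of 53, by 0.446 ± 0.324. In OIS-shA1 27 of the 53 were above 0, so as a group the chosen bins of 11q had near equal contact with A and B. In the longest run of 11q, chr11:117200711-118002037, the mean A preference was below 0 in every map. It was -0.547 in Grow, -0.678 in Grow-shA1, -0.202 in OIS and -0.349 in OIS-shA1. In the 3rd run, chr11:119603416-120202822, it was 0.00567 in OIS and 0.149 in OIS-shA1.

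The change lay mostly in contact with B. On 11p the mean contact of the chosen bins with B bins changed by -0.337 in OIS-shA1 minus Grow-shA1, while that with A bins changed by 0.170. On 11q these were -0.382 and 0.0634. In OIS minus Grow, a description of the choice, the changes were -0.356 with B and 0.0651 with A on 11p, and -0.380 and 0.0227 on 11q. Lower contact with B was not particular to the chosen bins. In OIS-shA1 minus Grow-shA1 the bins that stayed A changed by -0.140 with B and 0.0411 with A on 11p. On 11q they changed by -0.200 and -0.0276. The bins that stayed B changed by 0.00663 with B and -0.169 with A on 11p, and by -0.0613 and -0.195 on 11q. The preference of the chosen bins also differed with partners on the other arm. In OIS-shA1 minus Grow-shA1 it was higher by 0.754 ± 0.398 with partners of 11p and by 0.221 ± 0.220 with partners of 11q for the bins of 11p, and by 0.537 ± 0.384 with partners of 11q and 0.217 ± 0.182 with partners of 11p for the bins of 11q.

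Calling compartments by the sign of the A preference in place of the score, an alternative chosen after seeing the data, gave a similar count on 11p and a lower one on 11q. On 11p 23 bins then went from B to A in OIS and 6 from A to B, and on 11q 32 and 2, beside 7.29% and 0.956% of all bins with a preference. Of the bins called B to A by score, 19 of 24 on 11p and 26 of 53 on 11q were also called so by preference. In OIS-shA1 minus Grow-shA1, 25 bins of 11p and 32 of 11q went from B to A by preference, beside 7.07% of all bins. In the outer stretch of 11q, 19 of 109 bins went from B to A by preference in OIS, against 34 by score. In the inner stretch 13 of 268 did so, against 19 by score. With shA1 the counts by preference were 18 and 14. By this measure 10.1% of the bins of chromosome 11 changed compartment in OIS, again the 2nd highest share of 23, with a median of 8.23% over the others. In OIS-shA1 minus Grow-shA1 the share by preference was 9.74%, below the 14.1% by score. It was the 3rd highest, with a median of 7.91% over the others. The bins called by score and by preference in both pairs of maps numbered 15 on 11p and 19 on 11q.

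A gene-dense stretch of 11q next to the bins that were not kept set score and contact apart. Between chr11:67800951 and chr11:73803907 lie 23 kept bins with, among others, LRP5, ANO1, SHANK2, a scaffold of synapses, NUMA1, a spindle protein, and the UCP2 and UCP3 genes of mitochondrial carriers. Their mean score was 0.70 ± 0.368 in Grow, 0.603 ± 0.212 in Grow-shA1, 0.189 ± 0.154 in OIS and -0.106 ± 0.178 in OIS-shA1. Their mean A preference was 0.792 ± 0.531, 0.816 ± 0.389, 0.871 ± 0.419 and 0.832 ± 0.280 in the same order, and it was above 0 in all 23 bins in OIS-shA1. The score was thus near 0 or below in both OIS maps while the contacts favoured A in every map. These bins listed 87.8% of their pairs in Grow, 79.0% in Grow-shA1, 66.4% in OIS and 59.5% in OIS-shA1, against 92.1%, 88.0%, 82.2% and 80.6% for the other kept bins of 11q. The part of this listing in the scores was not tested. The A to B call at NDUFS8 and TCIRG1 belongs here, as its A preference was 1.02 in Grow, 0.807 in Grow-shA1, 1.07 in OIS and 0.905 in OIS-shA1. Of the bins called A to B in OIS by score, 5 of 5 on 11p and 1 of 3 on 11q were also called so by preference.

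**Figure D4:**
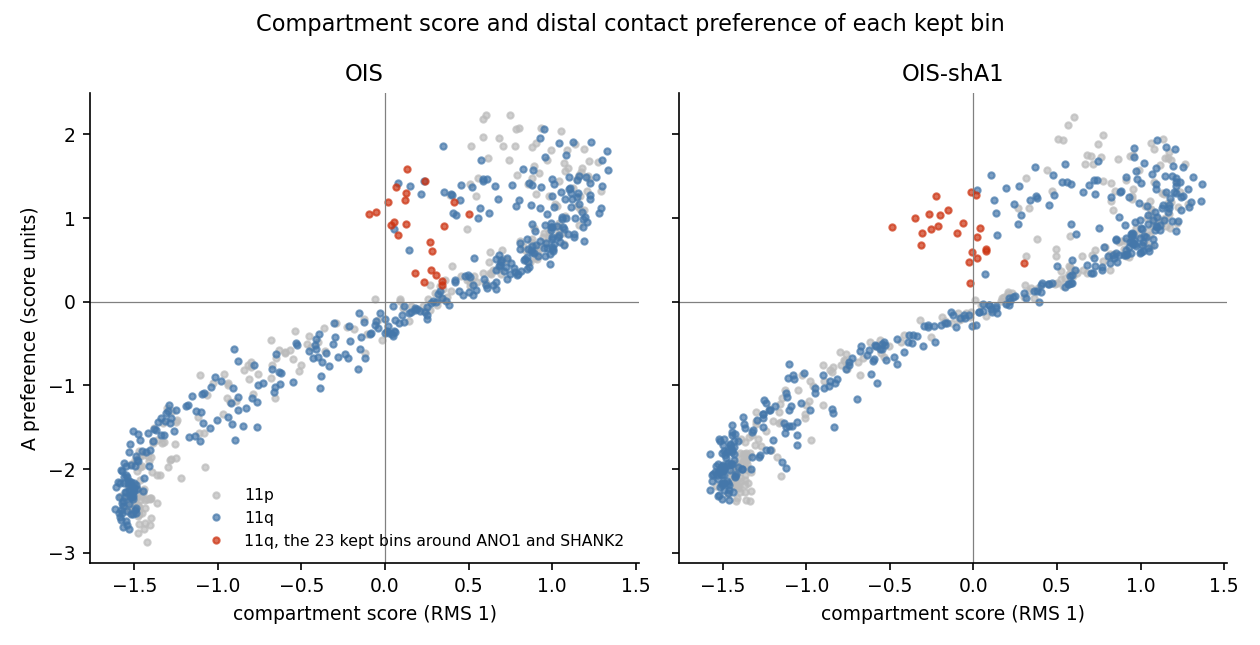
A preference (score units of the maps) against compartment score (root mean square 1) for each kept bin of 11p (grey) and 11q (blue) in OIS and OIS-shA1, with the 23 kept bins of the gene-dense stretch around ANO1 and SHANK2 in red. The red bins lie near or below a score of 0 but above 0 in A preference, and over the 377 bins of 11q the correlation of both measures was 0.938 in OIS and 0.933 in OIS-shA1.

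In OIS-shA1 relative to OIS, 30 bins of 11q and 4 of 11p went from A to B, beside 3.09% of all kept bins, and 4 and 5 went from B to A, beside 1.46%. With both scores over 0.2 from 0, 2 bins of 11q and none of 11p went from A to B, and among the bins with 80% of pairs listed, oriented by GC content, 6 and 1 did. The 30 bins fall into different kinds. The gene-dense stretch just described held 14 of them, with a mean A preference of 0.965 ± 0.403 in OIS and 0.871 ± 0.300 in OIS-shA1. The other 16 lay further out, 14 of them among the bins that had gone from B to A in OIS. Their mean score was -0.470 ± 0.298 in Grow, -0.740 ± 0.264 in Grow-shA1, 0.218 ± 0.250 in OIS and -0.330 ± 0.263 in OIS-shA1. Their A preference was -0.446 ± 0.307, -0.651 ± 0.306, -0.0966 ± 0.271 and -0.456 ± 0.250 in the same order, lower in OIS-shA1 than in OIS in 15 of 16. By the sign of the preference 7 bins of 11q and 4 of 11p went from A to B in OIS-shA1 relative to OIS, beside 1.76% of all bins, and with a component per arm 19 and 3 did so by score.

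Some of the outer bins that were A in OIS and B in OIS-shA1 can be named. Those from chr11:115001316 on, chosen here after their values were seen, hold CADM1, a cell adhesion gene, and a desert beside it. The desert bins, chr11:115599461-116003079, had a mean score of -0.594 in Grow, -1.0 in Grow-shA1, 0.391 in OIS and -0.707 in OIS-shA1, and a mean A preference of -0.507, -1.0, 0.0997 and -0.754. They were A in OIS alone by both measures. The bins of the adhesion gene NTM, chr11:131400370-131601590, and of its neighbour OPCML, chr11:132401134-132601300, had scores of 0.207 and 0.342 in OIS and of -0.389 and -0.0574 in OIS-shA1, with -0.623 and -0.411 in Grow. The bin of the transcription factor gene ZBTB16 and of the methyltransferase gene NNMT, chr11:114003298-114203644, went from -0.531 in Grow to 0.0610 in OIS and had -0.458 in OIS-shA1. The A preference in OIS was -0.114 for the NTM bin and -0.365 for the ZBTB16 bin, both below 0, and 0.0493 for the OPCML bin. By contacts the NTM and ZBTB16 bins were thus not A in OIS.

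Base composition played no part in the choice, and gene starts only in fixing the sign of the component. The mean GC content of the chosen bins was 43.9% ± 3.52 on 11p and 43.2% ± 3.95 on 11q, against 37.9% ± 2.40 and 38.7% ± 3.22 in the bins that stayed B and 43.3% ± 4.91 and 43.3% ± 4.88 in those that stayed A. In base composition they were thus like A bins while they were B in Grow. Runs of A and T of at least 6 bases, as printed in capitals above, made up 11.8% ± 3.23 of their bases on 11p and 12.5% ± 3.67 on 11q, against 17.5% ± 2.95 and 16.7% ± 3.49 in the bins that stayed B. The kept bins ranged from 3.63% to 22.7% on 11p and from 5.00% to 23.5% on 11q. A neighbour that was A in Grow stood beside 62.5% of the chosen bins of 11p and 56.6% of those of 11q, against 13.9% and 16.4% of the bins that stayed B, which is read from the Grow scores that were part of the choice. The chosen bins carried 1.79 starts of protein-coding genes per bin on 11p and 1.53 on 11q, between the 1.27 and 1.26 of the bins that stayed B and the 1.92 and 2.62 of those that stayed A.

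GC content followed the scores differently on the arms. Over the 249 bins of 11p, Pearson's r of score and GC content was 0.483 in Grow, 0.426 in Grow-shA1, 0.589 in OIS and 0.548 in OIS-shA1. Over the 377 bins of 11q it was 0.435, 0.388, 0.445 and 0.367. The change of score in OIS-shA1 minus Grow-shA1 had an r of 0.411 with GC content on 11p and of -0.0557 on 11q, and in OIS minus Grow 0.373 and 0.0168. Bins of 1 chromosome are neighbours in 1 map, so these values describe the arms. The 377 bins include the 23 of the gene-dense stretch around ANO1 and SHANK2, whose scores and contacts parted. The part of those bins in the values for 11q was not tested.

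Compartment strength, the mean of A-A and B-B contact minus A-B contact with the compartments of Grow, was 1.04 in Grow, 1.06 in Grow-shA1, 1.16 in OIS and 1.12 in OIS-shA1 for distal pairs within 11p. Within 11q it was 0.781, 0.838, 0.838 and 0.829, and between the arms 0.496, 0.491, 0.520 and 0.470. OIS minus Grow was 0.123 within 11p, 0.0567 within 11q and 0.0233 between the arms, but each value turned negative when scores were divided by the SD of their map at the same distance (-0.0202, -0.0710 and -0.128) or when unlisted pairs were counted as 0 (-0.0347, -0.115 and -0.0933), and with all pairs listed in each map it was 0.0524, -0.0324 and -0.0139. The value of OIS-shA1 minus OIS, -0.0480 within 11p and -0.00846 within 11q, turned positive under the first of these (0.0141 and 0.0491). No direction of strength is therefore given for the whole chromosome.

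By distance the arms followed a like course, read in the main setting only. Division by the SD and unlisted pairs as 0, which turned the values above negative, were not run by distance. Between 2 and 5 Mb the strength of OIS minus Grow was 0.275 within 11p and 0.277 within 11q, and that of OIS-shA1 minus Grow-shA1 was 0.188 and 0.176. Between 10 and 20 Mb these were 0.0694 and 0.111, and 0.0161 and -0.0106. Between 20 and 50 Mb they were below 0 on both arms, at -0.00477 and -0.0414, and -0.0608 and -0.0936. The share of pairs listed in all 4 maps was 96.0% and 98.2% at 2 to 5 Mb and 75.9% and 74.8% at 20 to 50 Mb.

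**Figure D5:**
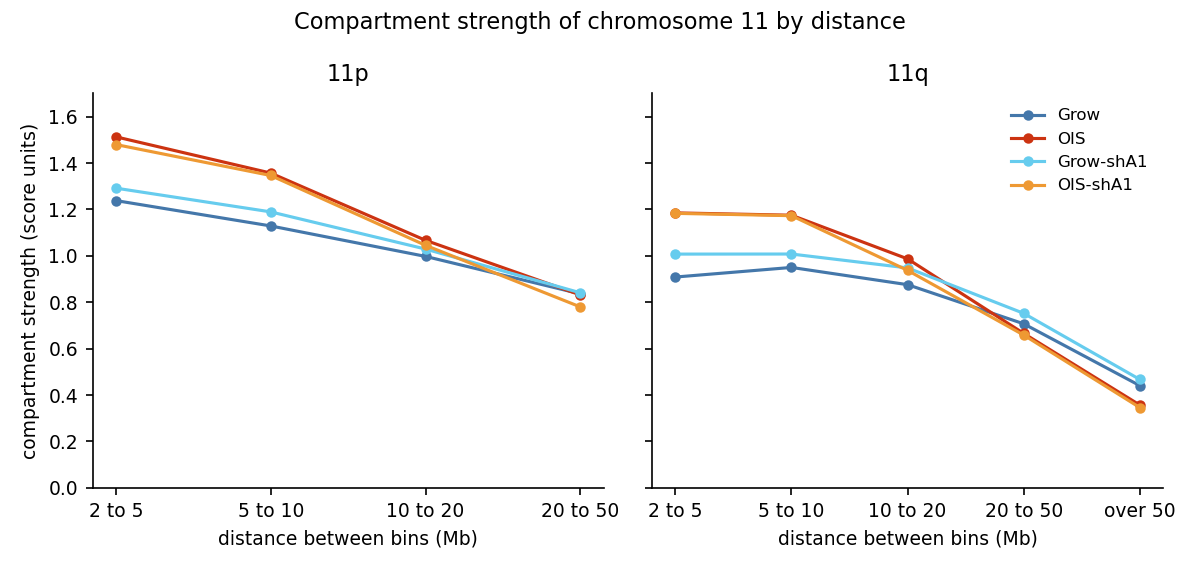
Compartment strength (score units) of distal pairs within 11p and 11q in the 4 maps, by the distance between the bins in Mb, with the compartments of Grow and pairs listed in all 4 maps. With scores not divided by their SD, both OIS maps lie above both Grow maps below 10 Mb, and the lines cross between 10 and 50 Mb.

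Contacts were also averaged over squares of 10 by 10 kept bins, about 2 by 2 Mb. Within 11p, 88 of 264 squares were higher in OIS than in Grow, within 11q 177 of 575, and between the arms 248 of 554. The largest positive difference within 11p was between chr11:23597126-25600992, around LUZP2, and chr11:37603384-39603076, which holds no protein-coding gene, with a mean score of 0.954 in Grow, 0.797 in Grow-shA1, 1.62 in OIS and 1.67 in OIS-shA1. The largest between the arms was that of the same 11p desert with the neural adhesion gene CNTN5, chr11:97598597-99597062, at 0.817 in Grow, 0.380 in Grow-shA1, 1.77 in OIS and 1.26 in OIS-shA1. The 2nd and 3rd between the arms were those of LUZP2 with CNTN5 (0.936 higher in OIS than in Grow) and the 11p desert with the stretch of MTMR2 and MAML2 (0.904 higher). Within 11q the largest was that of chr11:87399931-89399490, with CTSC, GRM5 and NOX4, with chr11:99597063-101599133, holding PGR, the progesterone receptor, and TRPC6, at 0.840 in Grow, 0.655 in Grow-shA1, 1.58 in OIS and 1.15 in OIS-shA1.

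The largest negative differences were larger than the positive ones on each arm. Within 11p the desert around LRRC4C, chr11:39603077-41599515, and the stretch of EXT2 and TSPAN18, chr11:43595728-45600414, had -0.633 in Grow, -0.273 in Grow-shA1, -1.90 in OIS and -1.42 in OIS-shA1. Within 11q the CNTN5 square, B in Grow, and the end of the arm, chr11:133600077-135006516, with JAM3 and NCAPD3, also B in Grow, had 1.24 in Grow, 1.61 in Grow-shA1, -0.0137 in OIS and 0.387 in OIS-shA1. Contact between these B stretches was thus lower in OIS, as it was between the end of the arm and the stretch of MTMR2 and MAML2 (-1.08 in OIS minus Grow and -0.740 in OIS-shA1 minus Grow-shA1). The largest negative difference between the arms was between the stretch of GALNT18 and TEAD1 at chr11:11598221-13599684 and that of LRP5 and ANO1 at chr11:68202886-71196284, at 0.267 in Grow, 0.310 in Grow-shA1, -0.301 in OIS and -0.247 in OIS-shA1. Each square named had the same direction in OIS-shA1 minus Grow-shA1, which are other maps. Over all squares 71 were higher and 132 lower in both pairs within 11p, 133 and 331 within 11q, and 202 and 238 between the arms.

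The gene families of the chromosome kept to their compartments to different degrees. Genes were placed by their start of transcription, and 1107 of 1317 protein-coding genes lay in kept bins, 627 of them in A in Grow, 612 in Grow-shA1, 736 in OIS and 683 in OIS-shA1. Their median score was 0.346, 0.376, 0.382 and 0.334. By A preference 609, 609, 678 and 693 of them were A in the same order. The count in OIS-shA1 was thus below that in OIS by score and above it by preference. Genes of a family often share a bin and then have its value. The serum amyloid A genes SAA1 and SAA2, which encode acute phase proteins, and SAA4, their constitutively expressed relative, share a bin with a score of -0.127 in Grow, -0.0236 in Grow-shA1, 0.707 in OIS and 0.873 in OIS-shA1. They were B in both Grow maps and A in both OIS maps. The keratin associated protein genes, structural proteins of hair, were A in all maps for 6 of 11, on 11p, while the 5 on 11q went from B to A in both pairs. These 5 share a bin of the gene-dense stretch around ANO1 and SHANK2, and its score in Grow-shA1, -0.00305, lay at the threshold. Its A preference was -0.221 in Grow, -0.0374 in Grow-shA1, 0.251 in OIS and 0.458 in OIS-shA1. Of the 5 beta-globin genes 3 start in the bin that went from A to B, and HBG2 and HBE1, whose models in this annotation extend far beyond the globins, start in the next bin, which was B in every map.

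Some families had all their listed members in kept bins in 1 compartment in all 4 maps. The 12 listed MS4A genes were B in every map, with a median score of -1.42 in Grow and -1.49 in OIS. The 7 inflammatory caspase and CARD genes (CARD17 is the pseudogene CARD17P in this annotation) and the 4 apolipoprotein genes were A in every map, at medians of 1.13 and 1.02 in Grow and of 1.15 and 0.968 in OIS. The 9 matrix metalloproteinase genes, which include MMP1 and MMP3, were A in every map. Their median score was 1.31 in Grow, 1.31 in Grow-shA1, 1.04 in OIS and 1.15 in OIS-shA1. Contacts went the other way. The A preference of the bin of MMP1 and MMP3 was 1.18 in Grow, 1.16 in Grow-shA1, 2.06 in OIS and 1.93 in OIS-shA1. In the bins of MMP7 and MMP13 it was 1.26 and 1.19 in Grow and 1.90 and 1.90 in OIS. The next groups were less uniform. The 8 imprinted genes were A in Grow, OIS and OIS-shA1, but KCNQ1 and TSSC4, which share a bin, were B in Grow-shA1 (-0.253, against 0.0532 in Grow). The 177 olfactory receptor genes lay in 41 bins with a median score of -1.19 in Grow, -1.10 in Grow-shA1, -1.25 in OIS and -1.17 in OIS-shA1, and 4 of them (2.26%) lay in bins that became A in OIS and 8 (4.52%) in bins that became B, beside 11.2% and 1.36% of all 1107 genes. Their cluster at chr11:57791353-59481318 stood apart with 2 of 7 bins in A in Grow, 2 in Grow-shA1, 3 in OIS and 5 in OIS-shA1. The 4 mucin genes and the long non-coding RNA genes NEAT1 and MALAT1 lay in bins that were not kept.

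Over all 1107 protein-coding genes, 124 (11.2%) were in bins that went from B to A in OIS and 15 (1.36%) in bins with the opposite change. Genes grouped by function are read beside these shares, and in groups of 13 to 19 genes a few bins decide the count. Of 13 cell cycle and DNA damage genes in kept bins, 8 were A in Grow and 11 in OIS (7 and 9 by A preference). By score 3 (23.1%) went from B to A. Those that went from B to A were CHEK1, a checkpoint kinase, from -0.325 in Grow to 0.240 in OIS, MRE11, a nuclease of double-strand break repair, from -0.208 to 0.547, and E2F8, and all 3 did so with shA1 as well. By A preference MRE11 alone of these was above 0 in OIS, at 0.141, while CHEK1 had -0.125 and E2F8 -0.112, and in OIS-shA1 the values were 0.209, 0.0545 and -0.00972. ATM, the kinase of the DNA damage response, was A throughout, at 0.578 in Grow, 0.718 in Grow-shA1, 1.21 in OIS and 1.24 in OIS-shA1. Of 19 secretory and inflammatory signalling genes 15 were A in Grow, 15 in Grow-shA1, 19 in OIS and 17 in OIS-shA1. By A preference these counts were 15, 15, 18 and 18. The 4 (21.1%) that went from B to A were SAA1, SAA2, NFRKB, a chromatin remodelling subunit, from -0.131 to 0.790, and IL10RA, a receptor for the cytokine IL-10, from -0.720 to 0.0222. IL10RA was B in OIS-shA1, at -0.418, and its A preference was below 0 in OIS as well, at -0.380. Of 15 fibroblast and matrix genes 12 were A in Grow and 14 in OIS (12 and 13 by A preference). FIBIN and NNMT went from B to A in OIS, to scores of 0.0899 and 0.0610, and neither was A in OIS-shA1. By A preference FIBIN stood at 0.00671 in OIS and NNMT at -0.365. Of 19 long neuronal genes 3 were A in Grow and 6 in OIS and OIS-shA1, where TENM4, GALNT18 and NAV2 went from B to A in both pairs. By A preference TENM4 and GALNT18 were above 0 in OIS, at 0.20 and 0.239, and NAV2, which shares the bin of E2F8, was below.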

How the data were processed

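Hi-C maps of the 4 conditions were analysed. The authors mapped the reads with HiC-Pro (hg19), filtered them, summed valid contacts over HindIII-adjusted 200 kb bins, balanced each map iteratively and removed the effect of distance. The deposited values are scores of both signs, 1 for each listed pair. Their log base is not given in the sources used here, so no fold change was computed, and read depth is unknown. Members, lists and regions of 11q were chosen with earlier results of these data known.

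For each map the correlation matrix of the chromosome's scores was computed over bins with at least 50% of pairs listed, and its first component was oriented by protein-coding gene count (GENCODE on GRCh37). Python 3.11.15, numpy 2.4.6, pandas 2.3.3, scipy 1.17.1 and matplotlib 3.10.9 were used, and the steps were tested on simulated data. Named were, per arm, the 3 longest runs from B to A, the longest from A to B, the 3 largest differences each way, the listed genes and the extreme squares, with at most 5 genes each. Others were chosen after their values were seen. Alternatives covered the component, its orientation, bins kept, scaling, extreme scores, distance, unlisted pairs and threshold.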

Additional observations from a re-analysis of the deposited data

How the results depend on the processing

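Each condition has 1 map, so no replicate could be left out. No paired analysis was possible because the replicates of a condition are pooled in its map. The A preference of the chosen bins kept its direction under all 14 alternatives. Of 60 alternatives for the counts 38 stayed within 1.5 times the reported value. With 80% of pairs listed, 114 bins of 11p and 190 of 11q were left. Bins changing compartment in OIS were then 11 and 22, those from B to A 5 and 1, the share also from B to A with shA1 0% on both arms, and those from A to B in OIS-shA1 minus OIS 19 and 4. These signs are not compartments, because orientation by gene count inverted 3 of the maps: r with the reported score was -0.972 in Grow, 0.986 in Grow-shA1, -0.925 in OIS and -0.974 in OIS-shA1. With the same bins oriented by GC content, added after seeing the data, r was positive in all 4 maps, the bins changing were again 11 and 22, those from B to A 6 and 21, the share on 11p 33.3%, and those from A to B in OIS-shA1 minus OIS 1 and 6. With both scores over 0.2 from 0 the bins changing were 14 and 21, those from B to A 12 and 20, the share on 11p 41.7%, and those from A to B in OIS-shA1 minus OIS 0 and 2. By the sign of the A preference, chosen after seeing the data, 34 bins of 11q changed, 32 from B to A, and 7 went from A to B in OIS-shA1 minus OIS, which was 19 with a component per arm. The causes of the other differences were not tested.

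Strength depended on the setting, in the order 11p, 11q and between the arms unless named. With scores divided by their SD at the same distance, OIS minus Grow was -0.0202, -0.0710 and -0.128, OIS-shA1 minus OIS 0.0141, 0.0491 and 0.00986, OIS-shA1 minus Grow-shA1 -0.0179, -0.0794 and -0.104, and Grow-shA1 minus Grow 0.0118 within 11p and -0.0142 between the arms. With all pairs listed in each map, OIS minus Grow was 0.0524, -0.0324 and -0.0139, OIS-shA1 minus Grow-shA1 0.00933, -0.103 and -0.0591, Grow-shA1 minus Grow -0.00493, 0.0363 and -0.0323, and OIS-shA1 minus OIS -0.0342 within 11q and -0.0775 between the arms. With unlisted pairs as 0, OIS minus Grow was -0.0347, -0.115 and -0.0933, OIS-shA1 minus Grow-shA1 -0.0529, -0.177 and -0.0885, Grow-shA1 minus Grow -0.0235, 0.00593 and -0.0732, and OIS-shA1 minus OIS -0.0555 within 11q. With compartments per arm, OIS-shA1 minus Grow-shA1 was 0.0309, -0.0264 and -0.0355, and between the arms OIS minus Grow was 0.0149 and Grow-shA1 minus Grow -0.00265. For pairs over 5 Mb apart OIS-shA1 minus Grow-shA1 was 0.0192 within 11p and -0.0279 within 11q, and OIS minus Grow 0.0332 within 11q. With scores limited to the 1st to 99th percentile OIS-shA1 minus Grow-shA1 was 0.0342 within 11p and -0.0142 within 11q, and with scores centred at each distance -0.0169 within 11q. The causes were not tested.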
